A study of Gossypium hirsutum with 6 samples.

Results

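Of 421554 transcripts measured in leaves of upland cotton (Gossypium hirsutum), 253 stayed within a narrow range of levels through heat in a tolerant and a sensitive genotype. They were chosen by their values: RPKM (reads scaled to the length of the transcript and to the size of the library) of 20 or more in all 6 libraries, and a highest RPKM no more than 2 times the lowest. The 253 transcripts belonged to 201 components, a component being a set of transcripts assembled together. The level limit alone was met by 1061 transcripts of 754 components, so 23.8% of these also met the ratio limit. The other 808 are the transcripts they are set against below. Since the values themselves chose the members, their levels and ratios are a description and carry no test.

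Each group held 1 library, made from leaves of seedlings about 20 days old. The genotypes were Nan Dan Ba Di Da Hua, labelled heat tolerant, and Earlistaple 7, labelled heat sensitive; the labels give Hoagland's solution as the culture condition of all plants. In each genotype leaves came from a control at 28 °C and from plants held at a constant 45 °C for 4 h or for 8 h. Before the heat, which began around midday, growth was at 28 °C (day) and 22 °C (night) with 14 h of light and 10 h of dark. The labels say neither how many plants went into a library nor when on that day the controls were harvested, so heat and time of day cannot be told apart. With 1 library per group, no difference has a replicate check, and the spread between plants is unknown.

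Heat makes plant cells produce chaperones under the control of heat shock transcription factors, while many transcripts of photosynthesis and growth decline. Transcripts that keep their share of the messenger RNA through such a shift are of use as internal references, against which others are measured. Families often used in this way in plants include those for ubiquitin, actin, tubulin, elongation factors and phosphatase subunits. None of the 253 identifiers matched the 99454 genes of the RefSeq table, and the files pair no identifier with a gene. It is therefore not known here which of these families, if any, are among the 253, no sequence can be shown, and the leaf label could not be checked against marker genes.

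RPKM is a share of a library, so a constant RPKM is a constant share and not a constant number of molecules per cell. In a bulk sample fewer cells of a type and less RNA per cell cannot be told apart. The 6 columns summed to between 806047 and 846903 RPKM. The number of reads is unknown, but the most frequent ratio between low values of the same transcript gave estimates of depth relative to the tolerant control. They were 0.804 (4 h) and 0.796 (8 h) in tolerant leaves, and 1.13 (control), 1.07 (4 h) and 0.871 (8 h) in sensitive leaves. Transcripts that reached 1 RPKM numbered 107290 in the tolerant control, the fewest, and 147583 in the tolerant 4 h and 148293 in the sensitive 8 h library, the most. These 2 libraries also had the highest median-of-ratios scaling factors, 1.3 and 1.23, against 0.781 to 1.01 in the other 4. How the list changes under other scaling factors is given below. The part of this difference in breadth in the choice of the 253 was not tested.

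The mean RPKM of the constant-level transcripts over the 6 libraries ran from 22.5 to 434 with a median of 38.0. The ratio limit itself bounds a member's mean, so the mean is not set against that of the 808 others. The lowest RPKM of the 6 libraries had a median of 28.93 in the members and 30.02 in the others. By library, the median was 36.8, 39.9 and 37.6 RPKM at control, 4 h and 8 h in tolerant leaves and 35.8, 37.9 and 35.9 RPKM in sensitive leaves. Together they held 1.44%, 1.54% and 1.53% of all RPKM in the tolerant and 1.42%, 1.60% and 1.45% in the sensitive libraries. Only 17 of them averaged 100 RPKM or more, in 14 components. The share meeting the ratio limit was 29.1% of the 327 transcripts whose lowest value lay between 20 and 25 RPKM, 28.8% of the 208 between 30 and 40 RPKM, and 15.6% of the 45 at 100 RPKM or more. In between, it was 18.3% at 25 to 30 RPKM, 19.7% at 40 to 60 RPKM and 18.9% at 60 to 100 RPKM. The ratio limit alone was not rare at lower levels. Among the 53047 transcripts that reached 1 RPKM in each of the 6 libraries, 20.1% stayed within a ratio of 2.

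**Figure D1:**
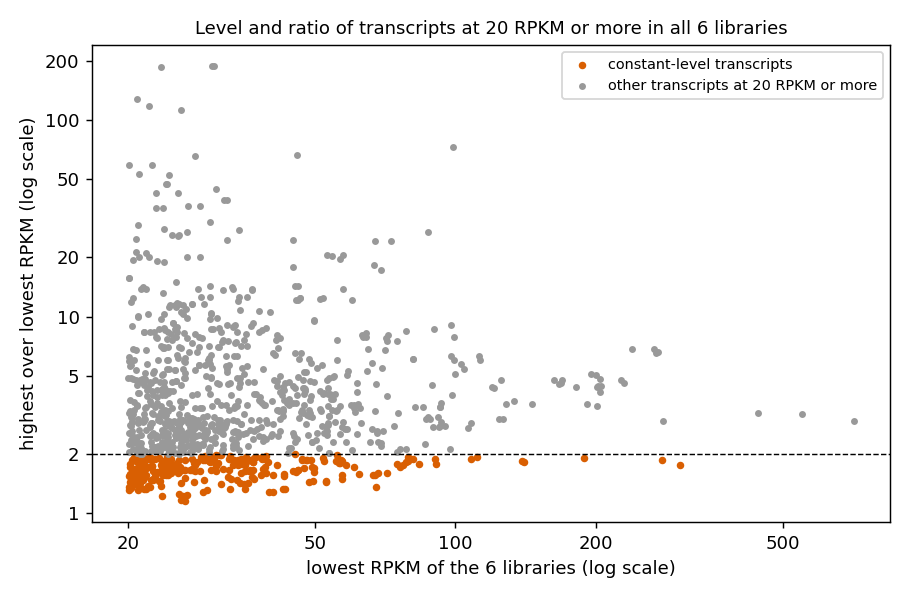
Lowest RPKM of the 6 libraries (horizontal, log scale) against highest over lowest RPKM (vertical, log scale) for the 1061 transcripts that reached 20 RPKM in every library, with 1 point per transcript. The 253 constant-level transcripts lie under the dashed line at 2, and the 808 others spread above it to 188.

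Within the limit the ratios were not small. The highest value was 1.7 times the lowest at the median, with quartiles of 1.54 and 1.85, so most of the 253 lay in the upper part of the range the rule allows. Of the 253, 148 stayed within 1.75, 53 within 1.5 and 6 were no more than 25% apart. In the 808 others the median was 3.73 and the largest 188. There was no gap at the limit. The 3 members nearest to it had ratios of 1.996, 1.980 and 1.980, and the 3 nearest transcripts beyond it had 2.001, 2.001 and 2.002. At the level limit, the lowest members had a minimum of 20.03, 20.04 and 20.05 RPKM, while transcripts with minima of 19.95, 19.95 and 19.86 RPKM missed it. The list is thus a stretch of a continuous range.

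The most constant transcript was comp99150_c0_seq1. It measured 29.79, 29.2 and 30.58 RPKM at control, 4 h and 8 h in tolerant leaves and 28.82, 28.92 and 26.41 RPKM in sensitive leaves, a highest over lowest ratio of 1.16. Only the sensitive 8 h library stood apart, below the other 5, which lay within 1.76 RPKM of each other. The next, comp99921_c0_seq1, had nearly the same profile, with 29.23, 28.46 and 30.13 RPKM in tolerant leaves and 28.23, 28.05 and 25.97 RPKM in sensitive leaves. The first stood at 1.01 to 1.03 times the second in every library although the assembly put them in different components. They may not be separate observations, since the labels do not say how reads were assigned. The next in constancy measured 24.94, 28.78 and 25.65 RPKM in tolerant leaves and 23.6, 26.02 and 27.45 RPKM in sensitive leaves, a ratio of 1.22.

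The most abundant member was comp104994_c0_seq1, with 526.08, 403.33 and 532.33 RPKM in tolerant leaves at control, 4 h and 8 h, and 342.17, 301.76 and 496.14 RPKM in sensitive leaves. In each genotype its 4 h value was the lowest of the 3, and in each condition the tolerant value was the higher one. The second, comp94705_c0_seq1, measured 276.01, 421.98 and 511.29 RPKM in tolerant leaves and 278.53, 309.08 and 334.9 RPKM in sensitive leaves. Its controls were nearly equal and its 4 heated values all lay above them, by 1.85-fold at 8 h in tolerant and 1.2-fold in sensitive leaves. The next in abundance had the same order, with 188.11, 254.79 and 357.33 RPKM in tolerant leaves and 206.08, 221.71 and 230.38 RPKM in sensitive leaves. The most abundant members were therefore among the less constant ones, with ratios of 1.76, 1.85 and 1.90.

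**Figure D2:**
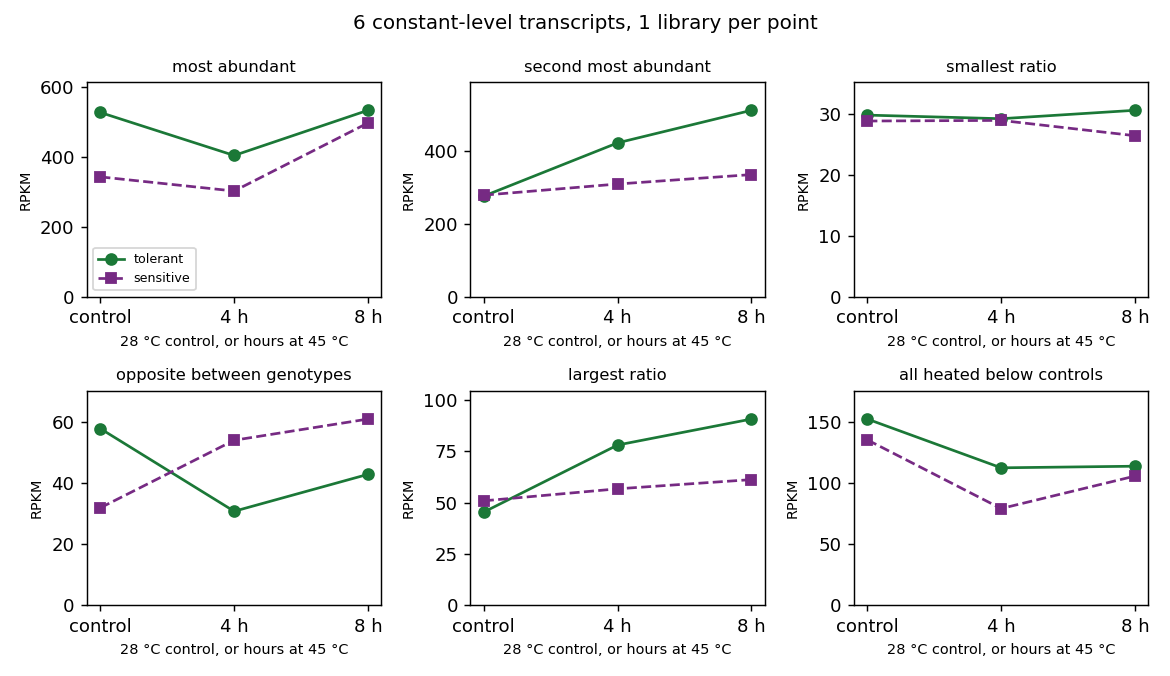
RPKM of 6 constant-level transcripts by condition, with tolerant libraries as circles on a solid line and sensitive ones as squares on a dashed line, 1 library per point and each axis starting at 0. The transcript of smallest ratio stayed between 26.41 and 30.58 RPKM, whereas the one titled as opposite between genotypes was at its lowest in the tolerant 4 h library (30.8 RPKM) and its highest in the sensitive 8 h library (60.97 RPKM).

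The remaining variation of the members was split between conditions and genotypes as a description. On the log2 scale, 53.0% of the summed squares of the 253 lay between the 3 conditions, 19.3% between the genotypes and 27.7% in their interaction. In the 808 others the shares were 75%, 10.6% and 14.4%. These shares refer to RPKM as deposited and are not adjusted for the number of conditions and genotypes, so neither is read as the stronger source. The rule chose both sets by their variation, so nothing is read from the difference between them. As deposited, the tolerant 4 h, sensitive 4 h and tolerant 8 h libraries most often held a member's highest value, for 67, 63 and 59 of the 253. The sensitive 8 h library did so for 13. Of the 808 others, 8.66%, 21.7%, 31.4% and 7.92% were highest in these libraries, in the same order. The lowest value lay in the tolerant 8 h library for 67 members, in the tolerant control for 66, in the sensitive control for 38 and in the tolerant 4 h library for 13. Of the others, 32.1%, 16.1%, 34.2% and 4.58% were lowest there, in the same order. The tolerant 8 h library thus held many of both extremes, at 23.3% of the highest and 26.5% of the lowest values of the members. In the 808 others it held 31.4% of the highest and 32.1% of the lowest values. The rule chose both sets and these counts depend on the scaling of the libraries, so nothing is read from such differences.

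**Figure D3:**
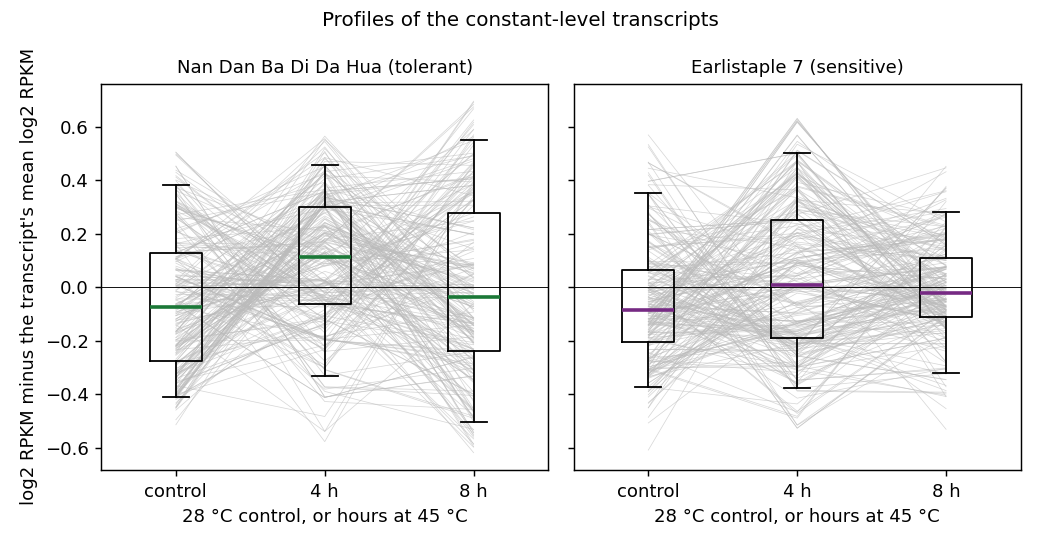
Level of each of the 253 constant-level transcripts by condition, as log2 RPKM minus the transcript's own mean over the 6 libraries, in the tolerant (left) and the sensitive genotype (right). Grey lines are single transcripts, boxes give the quartiles with the median in colour, and whiskers reach the 5th and 95th percentiles; the tolerant 8 h box is wider than that of the sensitive 8 h library.

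The rule keeps every log2 ratio of a member to its control between -1 and 1, and so it also draws the medians of the 253 towards no change. The directions below are those as deposited, and the median at tolerant 4 h was -0.41 under median-of-ratios and -0.30 with upper-quartile scaling, of which the scaling factors themselves make -0.63 and -0.52. Median-of-ratios scaling over only the transcripts at the level limit shifts every log2 ratio by -0.17 at tolerant 4 h and by -0.38 at sensitive 4 h. The median log2 ratio of RPKM in tolerant leaves was 0.22 (4 h) and 0.06 (8 h), and in sensitive leaves 0.08 (4 h) and 0.10 (8 h). Over the 53047 transcripts defined above, which the ratio limit does not bound, the same medians were 0.45, -0.04, 0.17 and 0.25. Nothing is read from the difference between these medians. The highest and lowest members stood at 1.87-fold and 0.533-fold of control at tolerant 4 h, 2.00-fold and 0.510-fold at tolerant 8 h, 1.92-fold and 0.549-fold at sensitive 4 h, and 1.91-fold and 0.522-fold at sensitive 8 h. At least 1.5-fold from control in either direction were 52 (4 h) and 69 (8 h) members in tolerant leaves, where 60% and 65.4% of the 53047 were so. In sensitive leaves they were 38 (4 h) and 20 (8 h), against 52.7% and 50%. The rule itself bounds these counts, so nothing is read from the difference. For 8 h over 4 h the median was -0.12 in tolerant leaves and 0.03 in sensitive leaves.

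Some members leaned the same way at both times. At least 25% above control at each heated time were 45 members (17.8%) in tolerant leaves, where 33.4% of the 53047 transcripts were so, and 32 (12.6%) in the sensitive genotype, against 35.9%. At least 20% below control (the same fold) at both times were 25 in the tolerant genotype, against 18.6% of all, and 21 in the sensitive genotype, against 18.9%. In both genotypes at both times 10 members were higher, against 21.1% of all, and 5 were lower, against 11.4%. Within this fold of control in all 4 heat comparisons were 17 members of 15 components, against 1.3% of all. The rule bounds all these ratios, so nothing is read from the difference to the background. Under upper-quartile scaling 3 members in place of 45 were higher at both times in the tolerant genotype and 74 in place of 25 were lower, so the direction of this lean depends on the scaling.

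All 4 heated libraries lay above both controls for 54 members (21.3%) of 48 components, where 27.7% of the 53047 did so. They lay below both for 27 members (10.7%), against 15.6%. The most abundant of the 54 are comp94705_c0_seq1 and the transcript after it, described above. The next measured 111.25, 132.62 and 214.09 RPKM in tolerant leaves and 112.4, 127.93 and 132.42 RPKM in sensitive leaves. Its tolerant 8 h value stood far above the other 5. The most abundant of the 27 measured 152.05, 112.26 and 113.58 RPKM in tolerant leaves and 135.03, 79.03 and 105.53 RPKM in sensitive leaves. The next of them measured 104.83, 91.99 and 81.2 RPKM and 103.29, 71.48 and 67.25 RPKM. Under median-of-ratios scaling 1 of the 253 had all heated libraries above the controls and 42 below, and under upper-quartile scaling 3 and 60.

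The log2 ratios to control of the genotypes, which share no library, were also set against each other. Across the 253 transcripts they gave Pearson's r = 0.314 and Spearman's rho = 0.333 at 4 h, and r = 0.364 and rho = 0.374 at 8 h. Across the 808 others r was 0.764 (rho = 0.741) and 0.726 (rho = 0.671). The rule limits the range of the members' ratios, so these r are not compared, and transcripts are not independent replicates. As deposited, at 4 h 111 members (43.9%) were above control in both genotypes, where 49.4% of the 53047 transcripts were so, and 55 (21.7%) were below in both, against 23.5%. Above in tolerant and below in sensitive leaves were 49 (19.4%), against 18.7%, and 37 (14.6%) were the reverse, against 8.06%. At 8 h 98 (38.7%) were above in both, against 40.1%, and 60 (23.7%) below in both, against 29.3%. Above in tolerant and below in sensitive leaves were then 39 (15.4%), against 8.45%, and the reverse 56 (22.1%), against 21.7%. These directions turned with the scaling. Under median-of-ratios scaling 27 members were above control in both genotypes at 4 h and 120 below in both, and at 8 h 31 and 95. With upper-quartile scaling they were 44 and 114 at 4 h, and 19 and 142 at 8 h.

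Among the members that moved in opposite directions in the genotypes, counted above, were some extremes of the heat comparisons. The transcript with the lowest tolerant 4 h ratio also had the highest sensitive 8 h ratio of the 253. It measured 57.84, 30.8 and 42.88 RPKM in tolerant leaves at control, 4 h and 8 h, and 31.94, 54.03 and 60.97 RPKM in sensitive leaves. Heated tolerant values lay below their control, and heated sensitive values above theirs. These directions rest on unequal controls of 1 library each, whose tolerant over sensitive ratio, 1.81, was the highest of the 253. Under median-of-ratios scaling the highest over lowest ratio of this transcript was 2.91, beyond the limit. Another had 31.25, 24.94 and 42.34 RPKM in tolerant leaves and 44.5, 24.8 and 23.25 RPKM in sensitive leaves, so that 8 h was its highest tolerant and its lowest sensitive value.

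Where the members centred between the genotypes depended on the scaling. The median log2 ratio of tolerant over sensitive was 0.02 (controls), 0.13 (4 h) and -0.01 (8 h) as deposited. It was 0.20, -0.23 and 0.65 under median-of-ratios scaling and 0.13, -0.20 and 0.31 with upper-quartile scaling, so under these its sign turned at 4 h and at 8 h. Of these the scaling factors themselves make 0.18, -0.36 and 0.65, and 0.11, -0.33 and 0.32. Median-of-ratios scaling over only the transcripts at the level limit shifts the log2 ratio by -0.16, 0.05 and 0.07. Under it the sign was kept at 4 h and turned in the controls and at 8 h. The SD of this ratio across members was 0.26, 0.40 and 0.39 in the same order, against 0.70, 0.62 and 1.13 across the 808 others. At least 25% apart (higher over lower) as deposited were 51 of 253 (20.2%) in the controls, 113 (44.7%) at 4 h and 105 (41.5%) at 8 h, against 47.5%, 57.5% and 75.1% of the 53047. The rule bounds these counts and the SD of the members too, so nothing is read from either difference. All 3 tolerant libraries lay above all 3 sensitive ones for 13 members (5.14%) of 12 components, where 1.46% of the 53047 did so. They lay below them for 4 (1.58%), against 3.19%. The rule limits how far a member varies between conditions, which bears on such separation, so nothing is read from these differences. Under median-of-ratios scaling the 13 became 20, and the 4 became 1 under it and under upper-quartile scaling. The most abundant of the 13 had 60.21, 59.73 and 76.1 RPKM in tolerant leaves and 54.47, 52.77 and 56.75 RPKM in sensitive leaves. The next had 55.81, 55.12 and 70.15 RPKM and 50.32, 48.58 and 52.59 RPKM. In each of these profiles the groups were separate, but only the tolerant 8 h value stood clear of the rest. The most abundant of the 4 had 60.08, 42.92 and 45.34 RPKM in tolerant leaves and 61.58, 68.01 and 62.39 RPKM in sensitive leaves, with nearly equal controls.

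More transcripts missed the limits through the tolerant 8 h library alone than through any other single library. When it was disregarded, 760 transcripts met both limits in the other 5 libraries, 3.0 times the 253. Disregarding any other single library gave 289 to 367. Of the 507 transcripts that met the limits in every library but this one, 424 were lower in it than in the other 5 and 83 were higher. In this library 340 of the 507 were under the level limit of 20 RPKM. Where lower, it stood at 0.421 times the median of the other 5 at the median transcript, and where higher, at 1.91 times. The sensitive control came next, with 114 transcripts, of which 109 were lower there and 66 were under the level limit there. Under the 4 scalings the number that only the tolerant 8 h library kept out was 308 to 490, and that of any other single library was 32 to 113. The tolerant 8 h library had the lowest estimated relative depth, 0.796, and the lowest median-of-ratios factor, 0.781. Under median-of-ratios scaling it alone kept out 308 transcripts. The tolerant 4 h library, with an estimated depth of 0.804, alone kept out 36 as deposited. The part of depth was not tested, and that of the factors not beyond these scalings.

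**Figure D4:**
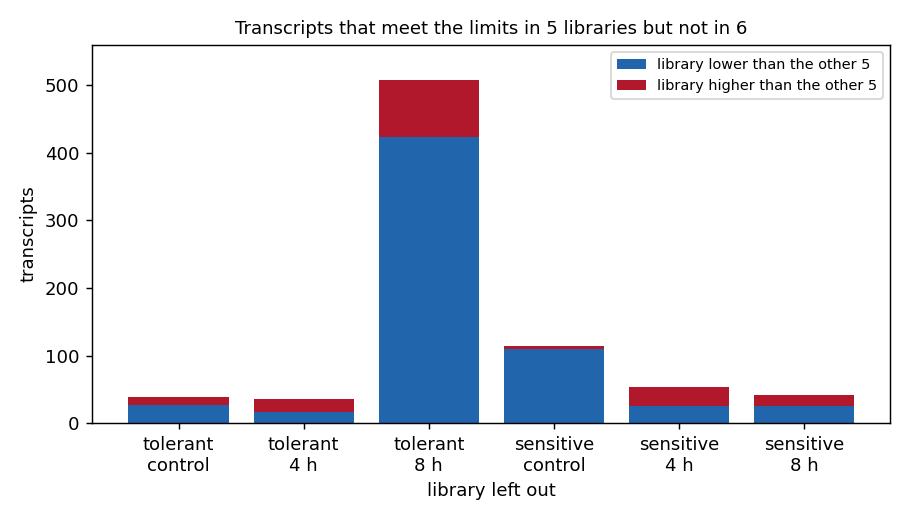
Number of transcripts that met the limits on level and ratio in 5 libraries but not with the library named on the horizontal axis, split by whether that library was lower (blue) or higher (red) than the other 5. The tolerant 8 h bar, at 507, stands far above the next, the sensitive control at 114.

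Within 1 genotype the same limits gave longer lists, and the tolerant list was the shorter. In the 3 tolerant libraries 603 of 1519 transcripts at the level limit (39.7%) met the ratio limit, against 1186 of 2079 (57.0%) in the 3 sensitive libraries. Of the 1061 transcripts at the level limit in all 6 libraries, 420 met the ratio limit in tolerant and 546 in sensitive leaves. The lists shared 320 transcripts, which is 53.1% of the tolerant and 27.0% of the sensitive list. The 253 members were 42.0% of the tolerant and 21.3% of the sensitive list. The order of the lists was the same under the 4 scalings, with 568 to 603 transcripts in the tolerant and 980 to 1196 in the sensitive genotype. There is 1 library per condition, so this difference was not tested.

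The other transcripts of the members' components were not used by the rule, and part of those compared stayed within a ratio of 2 as well. Of the 201 components 118 held more than 1 transcript. In these were 362 transcripts outside the level limit but at 1 RPKM or more in all 6 libraries, from 96 components. Their highest value was 2.30 times the lowest at the median (quartiles 1.80 and 3.23), and 134 (37.0%) stayed within 2. In the 553 components that reached the level limit without a constant-level transcript, 485 such transcripts of 155 components had a median of 4.08 (quartiles 2.81 and 6.23), and 48 (9.90%) stayed within 2. Of all 53047 transcripts at 1 RPKM or more in every library, 20.1% stayed within 2. The 553 components were chosen for lacking a constant-level transcript, and the sets compared differed in level, with medians of mean RPKM of 13.3 and 19.1. At least 4-fold were 69 of the 362 (19.1%) and 252 of the 485 (52.0%). With 1 transcript per component the shares within 2 were 40.6% of 96 and 9.03% of 155. Transcripts of a component may share sequence and reads, and nothing was tested over them, because they are not replicates of a library.

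**Figure D5:**
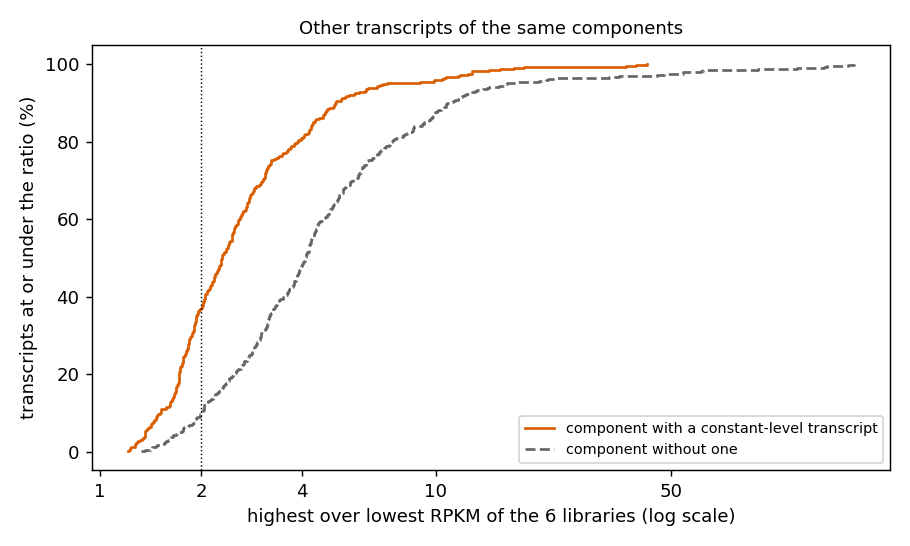
Share of transcripts (vertical, %) at or under a given highest over lowest RPKM (horizontal, log scale), for transcripts outside the level limit in components with a constant-level transcript (solid, 362 transcripts) and without one (dashed, 485 transcripts). At the dotted line at 2 the curves stand at 37.0% and 9.90%.

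A component need not be constant as a whole, however. Summed over all its transcripts, the RPKM of 173 of the 201 components (86.1%) stayed within a ratio of 2, and of 90 of the 118 with several transcripts. At the median component the members held 84.9% of that sum. In 21 components another transcript, reaching 20 RPKM in some library, varied at least 4-fold. The most abundant of these measured 906.35, 317.29 and 204.29 RPKM in tolerant leaves and 662.53, 421.99 and 355.67 RPKM in sensitive leaves, lower in every heated library than in its control. Beside it in the same component, a member measured 43.77, 37.97 and 36.94 RPKM and 38.8, 66.83 and 42.87 RPKM. In another component the varying transcript had 26.78, 289.06 and 637.37 RPKM in tolerant leaves and 14.98, 262.16 and 177.79 RPKM in sensitive leaves, while the member had 39.11, 57.36 and 49.42 RPKM and 42.45, 66.99 and 60.37 RPKM. In both components the member was the less abundant transcript wherever the varying one was high.

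Most components held a single member, 164 of the 201, and 29 held 2. The component with the most held 6 members among 11 transcripts, in profiles of several kinds. Its most abundant members measured 79.02, 134.28 and 97.85 RPKM in tolerant leaves and 102.92, 146.13 and 102.68 RPKM in sensitive leaves, and 78.56, 131.76 and 91 RPKM and 97.77, 142.58 and 101.43 RPKM. These were highest at 4 h in each genotype. A further pair was highest at 8 h in the tolerant genotype, one of them with 45.49, 78.13 and 90.78 RPKM in tolerant leaves and 50.95, 56.8 and 61.28 RPKM in sensitive leaves. Beside them, 2 transcripts missed the ratio limit through low tolerant 8 h values, one with 53.84, 66.65 and 29.37 RPKM and 57, 77.46 and 76.31 RPKM. In the tolerant 8 h library transcripts of this component thus lay both above and below their own controls.

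Fewer independent profiles than 253 stand behind the list. For 84 members (33.2%) another transcript at the level limit was proportional to it, which here means a ratio that varied by no more than 2% over the 6 libraries. That partner lay in another component for 74. Among the 808 others 39.4% had such a partner. With proportional members merged, 211 profiles remained.

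The list depends on how the libraries are scaled to each other. Of the 253 members, 249 met both limits with equal RPKM totals, 195 under median-of-ratios scaling over the 1061 transcripts at the level limit, 169 under upper-quartile scaling and 117 under median-of-ratios scaling over all transcripts above 0 in all libraries. Under all of these 110 members (43.5%) of 95 components remained, with 92 profiles after merging. Their mean RPKM had a median of 34.6 and reached at most 117, so none of the 3 most abundant members was among them. The most constant member, comp99150_c0_seq1, had a ratio of 1.16 as deposited and 1.82 under median-of-ratios scaling. In the 110 the ratio under the least favourable scaling was 1.79 at the median, and 8 stayed within 1.5 under every scaling. The smallest such ratio, 1.4, belonged to a transcript with 43.24, 53.68 and 45.22 RPKM in tolerant leaves at control, 4 h and 8 h, and 44.61, 57.58 and 55.15 RPKM in sensitive leaves. As deposited, 53 of the 110 were highest in the tolerant 4 h library and 43 in the sensitive 4 h library. Of all 253, 26.5% and 24.9% were so. The scalings divide tolerant 4 h values by up to 1.3, sensitive 4 h values by up to 1.11 and sensitive 8 h values by up to 1.23. The sensitive 8 h library was the highest for 3 of the 110, and for 5.14% of all 253. The part of the scaling factors in the choice of the 110 was not tested, and nothing is read from these counts.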

How the data were processed

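Per the file headers, the authors deposited RPKM values, 1 column per library, with 2 decimals and the same 421554 transcripts in each. No assembler, aligner, counter or strand setting is named in the labels or headers; the identifiers look like those of a de novo assembly. Libraries were grouped by genotype and condition as labelled. The members and all lists, limits and comparisons were chosen with earlier results of these data known. Ratios are plain ratios of RPKM with no pseudocount. Scaling factors were computed with numpy 2.4.6 and pandas 2.3.3 and have a geometric mean of 1. Relative depth was read from the most frequent ratio of unequal values between 0.2 and 0.6 RPKM. The rule, the median-of-ratios scaling and the merging of profiles were tested on simulated data, but the depth estimate was not. No test was run: no group has a second library, and an additive fit of genotype and condition was left out. The alternatives were other limits, 4 scalings, a pseudocount, 1 transcript per component and each library left out. The transcripts given with values were the 3 members highest in mean and the 3 smallest in ratio, those nearest the limits, the extremes of the heat and genotype comparisons, and the component with most members. The leading transcripts of the classes with separate groups, those beside varying transcripts of a component and the most constant under all scalings were added after their values were seen.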

Additional observations from a re-analysis of the deposited data

How the results depend on the processing

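The number of members, 253, and their share of the transcripts at the level limit, 23.8%, depended on the limits. A level limit of 10 RPKM gave 937 (28.3%), one of 40 RPKM 60 (18.9%), a ratio limit of 1.5 gave 53 (5.0%) and one of 3 gave 536 (50.5%). Median-of-ratios scaling gave 199 (17.2%), and upper-quartile scaling 216 (19.8%). Leaving out each library in turn gave 289 to 760 transcripts and shares of 26.3% to 43.7%, the upper end without the tolerant 8 h library. Equal RPKM totals, a ratio of RPKM + 1 and 1 transcript per component (178 of 736, 24.2%) left the number within 1.5 times.

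Median log2 ratios of the members moved with the scaling. Under median-of-ratios and upper-quartile scaling they were -0.41 and -0.30 for tolerant 4 h over control, 0.16 and -0.13 for 8 h over control, and 0.61 and 0.20 for 8 h over 4 h. In the sensitive genotype they were -0.0021 and 0.0056, -0.28 and -0.31, and -0.25 and -0.30 for the same comparisons. For tolerant over sensitive they were 0.20 and 0.13 in the controls, -0.23 and -0.20 at 4 h, and 0.65 and 0.31 at 8 h. Median-of-ratios scaling over only the transcripts at the level limit shifts the deposited medians by -0.17, -0.06 and 0.11 in the tolerant genotype. It shifts them by -0.38, -0.29 and 0.09 in the sensitive genotype, and by -0.16, 0.05 and 0.07 between genotypes. Equal RPKM totals, a pseudocount of 1 RPKM and 1 member per component kept each of these 9 medians within its 95% binomial interval over transcripts.

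Counts of members at least 25% higher at both times (45 tolerant, 32 sensitive, 10 both) became 0, 4 and 0 under median-of-ratios and 3, 3 and 0 under upper-quartile scaling. Those lower (25, 21 and 5) became 38, 51 and 17, and 74, 48 and 30. With a limit of 1.1-fold the higher were 81, 70 and 34 and the lower 50, 38 and 19, and with 1.4-fold 23, 9 and 2 and 12, 12 and 2. Within the limit in all 4 heat comparisons were 4 members at 1.1-fold and 72 at 1.4-fold. Heated libraries all above the controls numbered 1 and 3 members under the 2 scalings, and all below 42 and 60. The counts of members by direction in both genotypes under these scalings, in the report, were added after seeing the data. Members with all tolerant libraries above the sensitive ones were 20 under median-of-ratios scaling, and those below 1 under each. Of the other transcripts of the members' components, 45.9% stayed within a ratio of 2 at 5 RPKM or more, and 52.4% with no filter and a pseudocount of 1, against 11.2% and 19.6% in components without a member. Leaving out those proportional within 10% to a transcript at the level limit, chosen after seeing the data, gave 35.2% and 10.2%. The cause of these shifts was not tested beyond the scaling factors. No paired analysis of replicates was possible because each group held 1 library. A fit with genotype and condition as additive terms, which leaves residual freedom, was not made. The unknown read number leaves the counting error of each RPKM unknown.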
